A study of Mus musculus with 8 samples.

Results

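The 9 genes described here are Hoxa3, Hoxa5, Hoxa7, Hoxa9 and Hoxa10 of the Hoxa cluster, Hoxb3, Hoxb4 and Hoxb5 of the Hoxb cluster, and Pbx3, taken by symbol from the 15576 genes of the count table, where all 9 were found. They were measured by bulk RNA-seq in 8 libraries of sorted mouse bone marrow stem cells, 4 from untreated mice with chronic myeloid leukemia (CML) and 4 from CML mice given imatinib (CML-TKI). Imatinib is a tyrosine kinase inhibitor (TKI) that blocks the BCR-ABL kinase, and it was given by gavage at 400 mg/kg on alternate days for 4 weeks by the labels, whereas the study's methods name both this dose and a lower one and some of its captions give the lower one. All mice of both groups were C57BL/6 by their labels, and the study's CML model carries BCR-ABL and SCL-tTA transgenes, so that BCR-ABL is switched on in stem and progenitor cells once tetracycline is removed. The labels give the sorted phenotype as Lin-Sca1+cKit+Flt3-CD150-CD48+, whereas the study's text describes its leukemic stem cells (LSC) as CD48- and CD150+, and which gate was used could not be settled here. Slamf1, the gene of CD150, was at 29.01 to 37.7 CPM in the CML libraries, which goes against a CD150- phenotype, and at 0.62 to 6.58 CPM in the CML-TKI libraries. The study's methods give an age for transplant recipients only (8 weeks), and describe imatinib for both primary and transplanted mice. The ages of the mice sorted here and whether each library came from a separate animal were not given in the sources used here, so p-values measure the spread between these libraries. The CML libraries are numbered 1, 2, 3 and 5 as in the table, and the CML-TKI libraries 1 to 4.

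HOX proteins are homeodomain transcription factors whose genes lie in clusters, in an order that follows their expression along the body axis of the embryo. In blood formation, Hoxa and Hoxb genes are active in stem and early progenitor cells and are turned down as cells mature. HOX proteins bind DNA together with PBX and MEIS proteins, which belong to another homeodomain class called TALE, and HOXA9 with MEIS1 is known as a driver of myeloid leukemia. MLL (Kmt2a), menin and the histone methyltransferase DOT1L are known to keep the Hoxa cluster active.

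None of the 8 members tested by edgeR was called between CML-TKI and CML, and Hoxb5 did not pass the filter on low counts and was not in that test. The 5 Hoxa genes, Hoxb3, Hoxb5 and Pbx3 had lower means in CML-TKI, and the CML-TKI libraries were far more spread than the CML libraries. The sum of the 9 members was 102, 111, 116 and 119.9 CPM (counts scaled to a common library size after TMM normalization) in CML 1, 2, 3 and 5, against 73.7, 35.0, 8.77 and 12.5 CPM in CML-TKI 1, 2, 3 and 4. All 9 members had a count in each of the 4 CML libraries and in CML-TKI 1, against 5, 2 and 7 members in CML-TKI 2, 3 and 4. Of the 8 members tested, 7 had a log2 fold change below 0 and Hoxb4 had one above 0 that changed sign with the scaling, with a median of -1.57 against -0.00026 over all 11937 genes tested. By edgeR 0 of the 8 were called at an adjusted p of 0.05, where 3.93% of all genes tested were called lower and 6.29% higher in CML-TKI. At an unadjusted p of 0.05, Hoxa7, Hoxa9 and Hoxb3 passed (3 of 8, each lower), where 25.7% of all genes tested passed in either direction and 12.1% as lower, and nothing is read from this count. The 8 members passed the filter on low counts through the CML libraries, since each reached its limit in 4 of 4 CML and in 1 to 3 CML-TKI libraries. On the same table DESeq2 called 1 of 8 members lower (Hoxa9), where it called 8.4% of all genes lower, and limma-voom with library weights called 6 of 8 (the 5 Hoxa genes and Pbx3), where it called 11% lower.

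**Figure D1:**
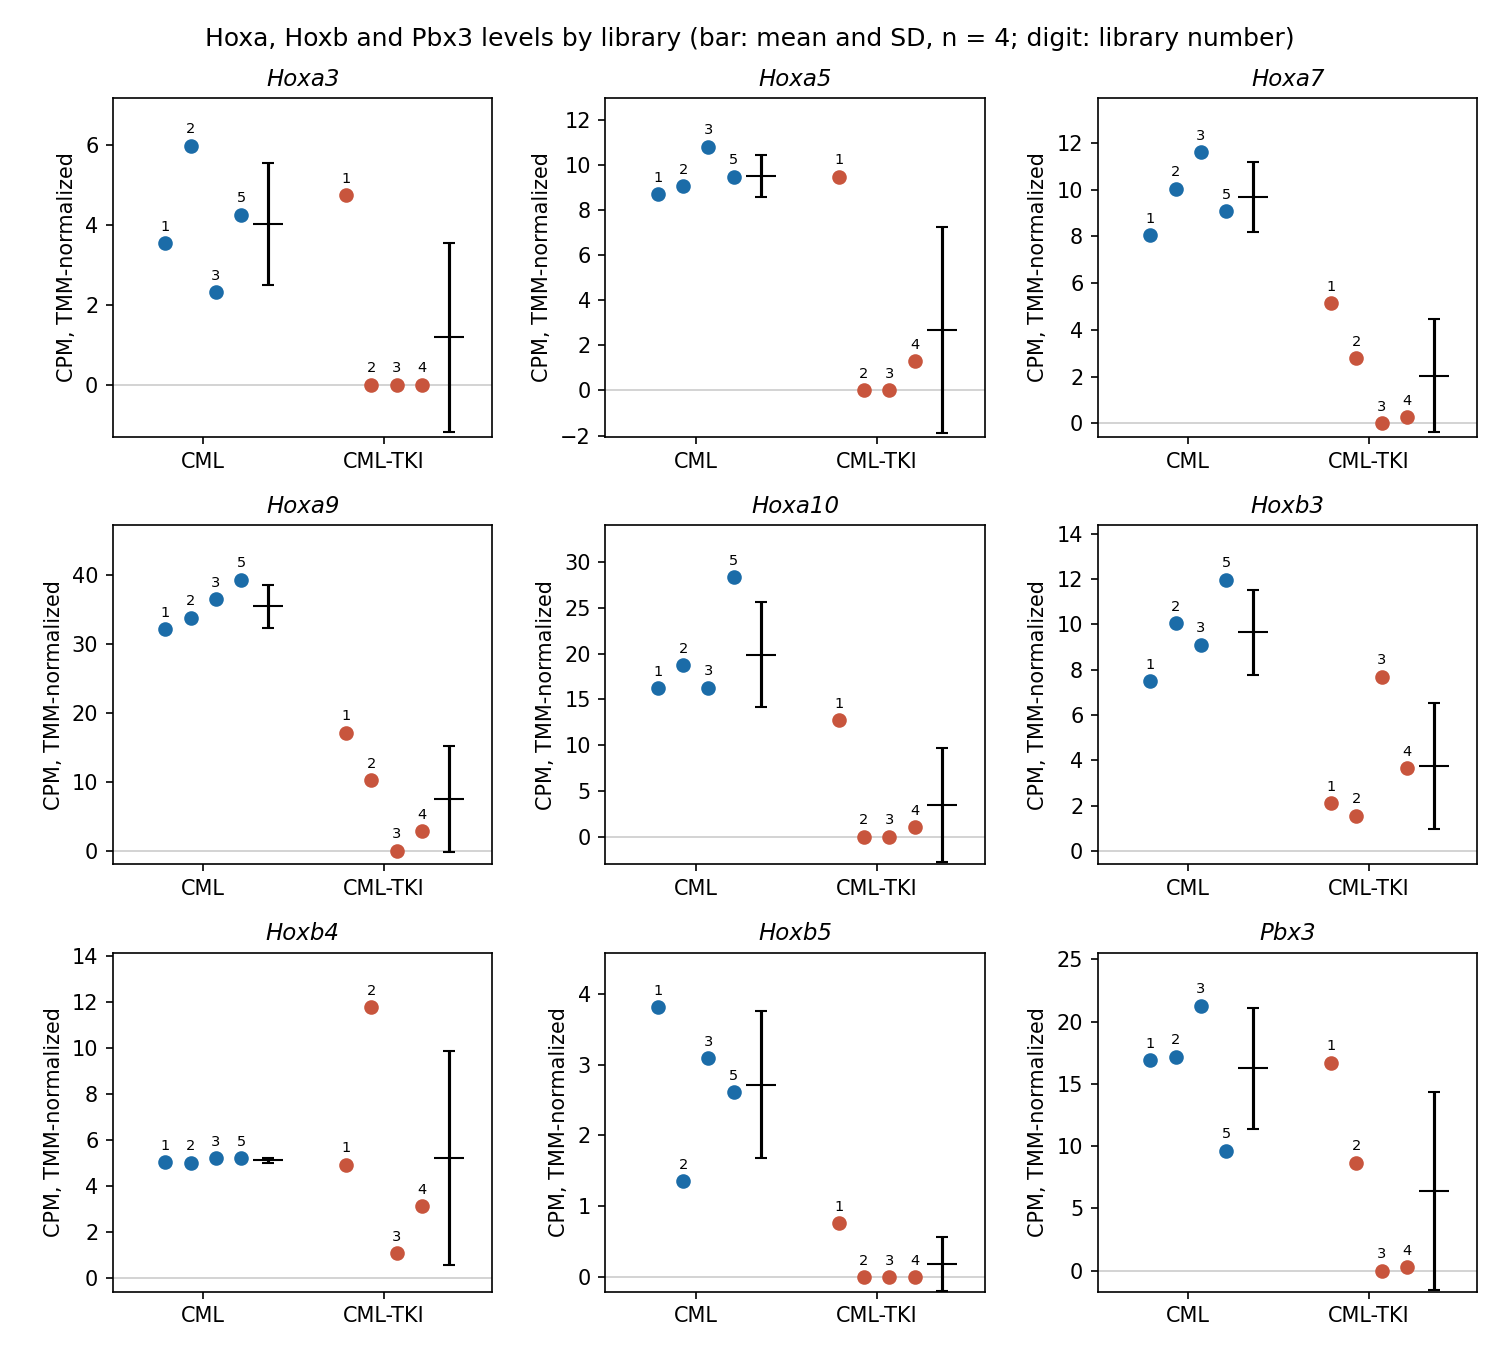
Each panel plots the TMM-normalized CPM of a member (vertical axis) in the 4 CML and 4 CML-TKI libraries, with the library number above each point and the mean and SD (n = 4) as a black bar. The Hoxa panels and Pbx3 show CML-TKI 1 above CML-TKI 2, 3 and 4, and Hoxb3 and Hoxb4 show other orders.

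The depth and make-up of the libraries bear on these low genes. Totals were 4939644 to 8620101 counts in CML and 1041552 to 5104268 in CML-TKI, and 3 counts, the limit that a count of 0 allows, corresponded to 0.409 to 0.580 CPM in CML and to 0.570, 0.930, 3.29 and 0.781 CPM in CML-TKI 1 to 4 (counting error only). The ribosomal transcript Rn45s took 20.2% to 38.3% of the counts in CML and 9.23% to 22.5% in CML-TKI. CML 1, 2 and 3 stood much closer to each other (chi-square per degree of freedom 3.56 to 4.79) than any other pair of libraries (23.9 or more), though not within sampling noise. Over all genes, 751 were called higher and 469 lower, and scaling to totals without Rn45s gave 602 and 589. In bulk libraries, fewer cells of a type and less RNA per cell cannot be told apart. The labelled stem cells were checked with their markers, and 12 of 12 HSC markers had counts in every CML library, summing to 1613 to 1823 CPM. The same sum was 529, 69.7, 156 and 162 CPM in CML-TKI 1, 2, 3 and 4, and Mecom, Fgd5, Procr and Esam were at 0 in CML-TKI 2 and 4. This HSC list holds Hoxb5 and Meis1, so it is not separate from the genes described.

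By position (RefSeq, GRCm38.p6, the mm10 assembly that the authors' processing notes list), the Hoxa members lie on the minus strand of chromosome 6, from Hoxa3 at chr6:52169059-52213067 through Hoxa5 at chr6:52201754-52204587, Hoxa7 at chr6:52215623-52218573 and Hoxa9 at chr6:52223097-52227370 to Hoxa10 at chr6:52231197-52240854. Hoxb5 (chr11:96303512-96306121), Hoxb3 (chr11:96307101-96347930) and Hoxb4 (chr11:96318267-96321638) lie on the plus strand of chromosome 11, with Hoxb4 inside the span of Hoxb3. Pbx3 lies alone on the minus strand at chr2:34171457-34372045. Several members share exonic bases with antisense genes in GENCODE vM21, 52.9% of those of Hoxb3 with Hoxb3os and 20.4% of those of Hoxa7 with Hoxaas3. Nextera XT libraries do not mark strand, so reads of such pairs cannot be told apart, and the values of Hoxb3 and Hoxa7 are uncertain to that degree. In the table Hoxb3os itself had counts in CML 1 only (1.09 CPM), and Hoxaas3 ranged from 0 to 1.90 CPM over the 8 libraries.

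Promoter sequences were at hand for 6 of the 9 members. The 250 bases before the annotated start are shown for Hoxa9 and Hoxa10, the highest members per length in CML. Those of Hoxb4, the only tested member with a log2 fold change above 0, are shown as well. They are written 5' to 3' on the gene's strand in lower case, from RefSeq (GRCm38.p6), with capitals marking the GC box GGGCGG.
Hoxa9, chr6:52227371-52227620, minus strand: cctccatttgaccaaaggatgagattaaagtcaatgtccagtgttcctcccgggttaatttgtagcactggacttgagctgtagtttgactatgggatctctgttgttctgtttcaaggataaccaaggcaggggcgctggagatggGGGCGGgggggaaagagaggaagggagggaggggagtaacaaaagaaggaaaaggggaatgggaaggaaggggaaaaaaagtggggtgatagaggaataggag
Hoxa10, chr6:52240855-52241104, minus strand: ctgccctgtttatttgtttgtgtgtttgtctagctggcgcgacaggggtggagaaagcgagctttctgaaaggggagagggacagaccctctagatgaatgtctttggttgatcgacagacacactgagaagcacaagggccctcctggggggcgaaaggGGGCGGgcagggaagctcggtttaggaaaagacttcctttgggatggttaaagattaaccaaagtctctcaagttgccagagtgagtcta
Hoxb4, chr11:96318017-96318266, plus strand: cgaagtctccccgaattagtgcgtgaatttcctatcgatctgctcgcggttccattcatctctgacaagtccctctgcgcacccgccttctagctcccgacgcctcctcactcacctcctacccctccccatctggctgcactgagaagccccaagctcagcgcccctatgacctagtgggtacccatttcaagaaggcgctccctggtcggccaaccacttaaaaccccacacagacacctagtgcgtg
The Hoxa9 and Hoxa10 windows each hold 1 GC box and the Hoxb4 window none, where 32.7% of 32851 mouse promoter windows of that length hold one on either strand. The HOX-PBX motif TGATNNAT, searched on both strands, was in none of the 7 windows of the 6 members (Hoxa10 has 2 starts), and 7.68% of all windows hold it. CpG dinucleotides numbered 3 in the Hoxa9 window, 7 in this Hoxa10 window and 14 in the Hoxb4 window, against a median of 6 over all windows. TATAAA (12.4% of all windows) was found in the window of the other Hoxa10 start alone among the 7, and CCAAT (33.9%) in that window and in Hoxa5. No binding was measured in these libraries.

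Hoxa9, the posterior Hoxa gene most tied to myeloid leukemia, had the highest count level of the members. It stood at 32.1, 33.8, 36.5 and 39.3 CPM in CML 1, 2, 3 and 5, and at 17.1, 10.2, 0 and 2.86 CPM in CML-TKI 1, 2, 3 and 4. Every CML-TKI library lay below every CML library, and CML-TKI 1 held 48.2% of the CML mean. The means were 35.4 ± 3.16 and 7.55 ± 7.69 CPM (SD, n = 4 each), so that the CML-TKI mean was 21.3% of the CML mean. The log2 fold change was -2.12 (SE 0.71, 95% interval -3.71 to -0.54) with an edgeR adjusted p of 0.0902. In CML-TKI 3, where no count was found, 32.3 counts would stand for the CML mean at that library's depth.

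Hoxa10, its neighbour on the 5' side of the cluster and also a stem and myeloid progenitor gene, had 16.2, 18.7, 16.2 and 28.3 CPM in CML and 12.7, 0, 0 and 1.04 CPM in CML-TKI. The groups did not overlap, though CML-TKI 1 lay just under the lowest CML library. The CML-TKI mean of 3.44 ± 6.21 CPM was 17.3% of the CML mean of 19.9 ± 5.76 CPM (SD, n = 4 each). Its log2 fold change of -2.35 had an SE of 1.08 (95% interval -4.75 to 0.05) and an edgeR adjusted p of 0.202. CML-TKI 2, 3 and 4 together held 4 counts of Hoxa10 where 159 would stand for the CML mean.

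Hoxa7, a further HOX factor of progenitor cells, stood at 8.03, 10.04, 11.6 and 9.07 CPM in CML and at 5.13, 2.79, 0 and 0.260 CPM in CML-TKI. Its groups did not overlap either. The CML-TKI mean was 2.04 ± 2.41 CPM against 9.69 ± 1.51 CPM in CML (SD, n = 4 each), with a log2 fold change of -2.07 (SE 0.85, 95% interval -3.97 to -0.17) and an edgeR adjusted p of 0.158. Hoxa7, Hoxa9 and Hoxa10 were thus 3 of 8 tested members with every CML-TKI library below every CML library, where 13.1% of all genes tested showed that order.

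Hoxa5 and Hoxa3, of the middle and the anterior part of the cluster, stood at the level of CML in CML-TKI 1. Hoxa5, a HOX factor known both from blood progenitors and from mesenchyme, had 8.72, 9.07, 10.8 and 9.49 CPM in CML and 9.50, 0, 0 and 1.30 CPM in CML-TKI. CML-TKI 1 was level with CML at 99.7% of its mean, and the other CML-TKI libraries lay far below. The fit gave a log2 fold change of -1.65 (SE 1.06, 95% interval -4.00 to 0.71) and an edgeR adjusted p of 0.364. Hoxa3, a group 3 HOX gene that also patterns the pharynx, had 3.54, 5.98, 2.32 and 4.26 CPM in CML and 4.75, 0, 0 and 0 CPM in CML-TKI. CML-TKI 1 lay inside the CML range, at 118% of the CML mean, and the other CML-TKI libraries had no count. Its log2 fold change was -1.496 (SE 1.21, 95% interval -4.18 to 1.19), with an edgeR adjusted p of 0.478. In CML-TKI 3 only 3.67 counts would stand for the CML mean, little above the 3 that a count of 0 allows, against 12.99 in CML-TKI 2 and 15.5 in CML-TKI 4.

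The 5 Hoxa members shared CML-TKI 1 as the highest CML-TKI library, and their summed level was 49.2, 13.02, 0 and 5.46 CPM in CML-TKI 1, 2, 3 and 4 against 68.6 to 90.5 CPM in CML. Across the 8 libraries, the Pearson r between pairs of Hoxa members on the log2 scale ran from 0.80 (Hoxa3 with Hoxa9) to 0.99 (Hoxa5 with Hoxa10). These points share the group difference and the depth of each library, and are given as a description.

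Of the Hoxb members, Hoxb3, a group 3 HOX gene of stem and progenitor cells, stood at 7.49, 10.04, 9.08 and 12.0 CPM in CML and at 2.09, 1.55, 7.67 and 3.64 CPM in CML-TKI. The groups overlapped through CML-TKI 3 alone, the library in which the Hoxa members had no count, and those 7.67 CPM rest on 7 counts. The CML-TKI mean of 3.74 ± 2.77 CPM was 38.8% of the CML mean of 9.64 ± 1.87 CPM (SD, n = 4 each). The log2 fold change was -1.49 (SE 0.61, 95% interval -2.84 to -0.13) with an edgeR adjusted p of 0.155. Without CML-TKI 3 it was -1.97 with an adjusted p of 0.0455, in a fit that called 4.17% of all genes lower.

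Hoxb4, known for expanding blood stem cells when it is overexpressed, was nearly constant in CML at 5.04, 5.02, 5.22 and 5.22 CPM and ranged widely in CML-TKI at 4.94, 11.8, 1.096 and 3.12 CPM. CML-TKI 2 was the highest of all 8 libraries and CML-TKI 3 the lowest, with 1 count. The means were 5.12 ± 0.111 and 5.23 ± 4.64 CPM (SD, n = 4 each), and the log2 fold change was 0.08 (SE 0.66, adjusted p 0.957 by edgeR), which turned to -0.058 when libraries were scaled to totals without Rn45s. Its 95% interval ran from -1.39 to 1.55, so that the data do not show Hoxb4 to be unchanged, and the difference between Hoxb4 and the Hoxa members was not tested.

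Hoxb5, a marker of long-term repopulating stem cells in mice, was the lowest member and did not pass the filter on low counts. It had 28, 7, 16 and 19 counts in CML 1, 2, 3 and 5 and 4, 0, 0 and 0 counts in CML-TKI 1 to 4, that is 3.81, 1.35, 3.09 and 2.61 CPM against 0.760, 0, 0 and 0 CPM. Every CML-TKI library lay below every CML library. The mean difference, CML-TKI minus CML, was -2.53 CPM, with a two-sided exact permutation p of 0.0286 (n = 4 each), the smallest that the 70 relabelings allow and not adjusted for other genes. It was 0.0571 by the same exact test when any 1 of the CML-TKI libraries was left out. In CML-TKI 3 a count of 0 allows up to 3.29 CPM, above the CML mean of 2.72 CPM, so a lower level was not detectable in that library. Over the 8 libraries, Hoxb3 had r of 0.07 to 0.52 with the Hoxa members and Pbx3, and -0.38 with Hoxb4. Hoxb4 had r of 0.75 with Pbx3, 0.74 with Hoxa9 and 0.66 with Hoxa7, and of 0.23 to 0.27 with Hoxa3, Hoxa5 and Hoxa10.

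Pbx3, a TALE cofactor that binds DNA with HOXA9, had 16.9, 17.2, 21.3 and 9.62 CPM in CML and 16.7, 8.68, 0 and 0.260 CPM in CML-TKI. CML-TKI 1 was level with CML 1 and 2 (103% of the CML mean), CML-TKI 2 lay just under CML 5, and CML-TKI 3 and 4 together held 1 count. The CML-TKI mean of 6.41 ± 7.96 CPM was 39.5% of the CML mean of 16.2 ± 4.84 CPM (SD, n = 4 each), with a log2 fold change of -1.24 (SE 0.96, 95% interval -3.39 to 0.91) and an edgeR adjusted p of 0.461. In its order over the libraries Pbx3 was most like Hoxa7 (r = 0.97) and Hoxa9 (r = 0.93).

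**Figure D2:**
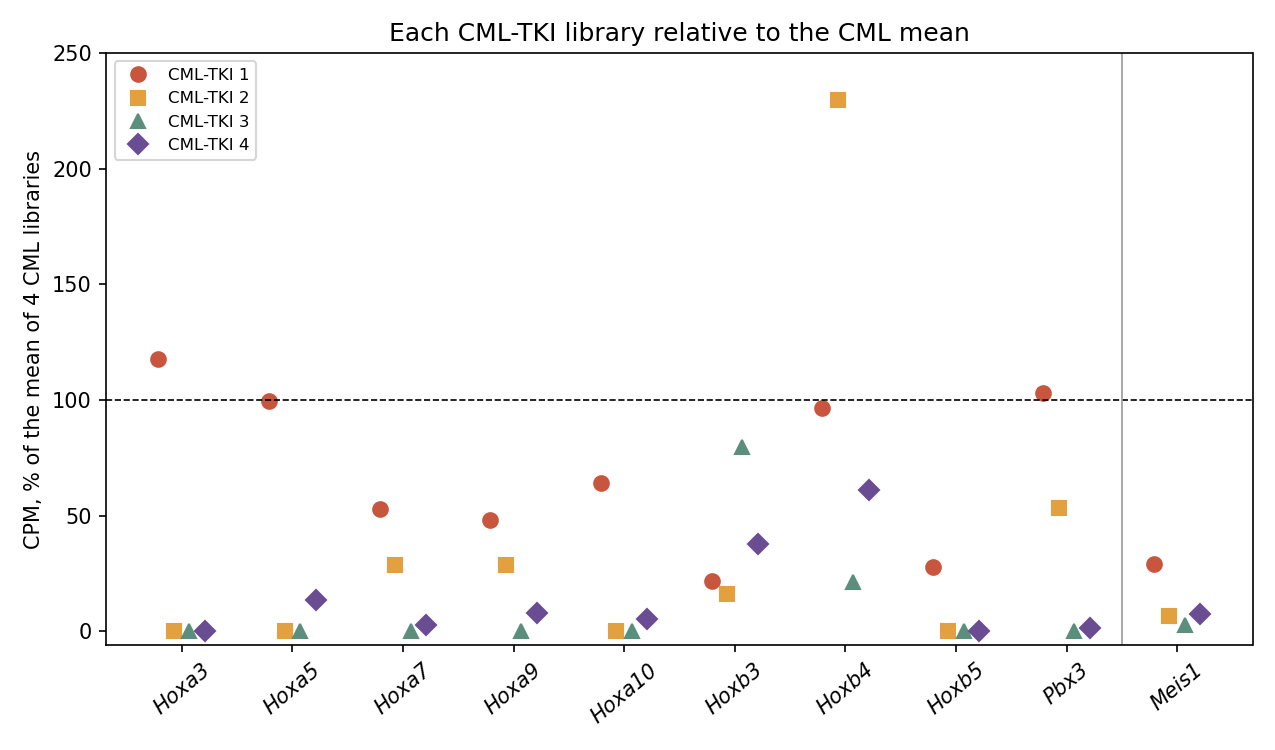
For each member, and for Meis1 at the right, the vertical axis gives the CPM of each CML-TKI library as a percentage of the mean of the 4 CML libraries (dashed line at 100%). CML-TKI 1 lies at 96.4% or above for Hoxa3, Hoxa5, Hoxb4 and Pbx3, between 48.2% and 64.1% for Hoxa7, Hoxa9 and Hoxa10, and at 28.96% or below for Hoxb3, Hoxb5 and Meis1.

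The calls changed when CML-TKI 1 was left out. Without it, edgeR called 6 of 9 members lower in CML-TKI, where 11% of all genes tested were called lower in that fit. The count is a description, since all 6 entered that fit through the CML libraries, where they are high. The filter needed 3 libraries at its limit. Of the 3 CML-TKI libraries, Hoxa9 reached it in 2, Hoxa7 in 1 and Hoxa3, Hoxa5, Hoxa10 and Hoxb5 in 0. The adjusted p of these 6 members in that fit carry the same limit. Hoxb5 had not passed the filter with all 8 libraries. Hoxa10 then had a log2 fold change of -5.32 (SE 0.82, adjusted p 0.00243), Hoxa5 one of -4.00 (SE 0.92, adjusted p 0.0143), Hoxa7 one of -2.99 (SE 0.85, adjusted p 0.0356) and Hoxa9 one of -2.82 (SE 0.66, adjusted p 0.0161). Hoxa3 and Hoxb5 had no count in the remaining CML-TKI libraries and were called with adjusted p of 0.0109 and 0.0178. Measured against 3 counts over the 3 libraries together (0.376 CPM), Hoxa3 was at least 10.7-fold lower and Hoxb5 at least 7.23-fold lower than the CML mean. Hoxb3 (adjusted p 0.168), Hoxb4 (0.909) and Pbx3 (0.138) were not called there. The median of the 9 fitted changes was -2.99, or -2.85 with Hoxa3 and Hoxb5 at their bounds. Leaving out any other library gave 0 calls among the members, apart from Hoxb3 without CML-TKI 3.

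CML-TKI 1 also stood apart in other genes. Its HSC marker sum of 529 CPM was the highest of the CML-TKI libraries, and its granulocyte marker sum (1524 CPM) and monocyte and macrophage marker sum (1482 CPM) were the lowest, against at most 8601 and 7462 CPM in the others and 193 to 317 and 250 to 321 CPM in CML. Of the granulocyte markers 15 of 15 had a log2 fold change above 0 and 13 were called higher, among them Mpo and Elane, enzymes of neutrophil granules. Of the monocyte and macrophage markers 11 of 11 were called higher, among them Csf1r and Irf8, where 6.29% of all genes tested were. Not every granulocyte marker was raised in CML-TKI 1, where Ltf (7.98 CPM) and Mmp9 (5.13 CPM) lay below every CML library, and Camp and Ngp within the CML range. A list of mesenchymal stroma genes, chosen after the values were seen, summed to 1142 CPM in CML-TKI 1, with Sparc at 639 and Pdgfra at 318 CPM, and to 18.0, 306 and 13.5 CPM in CML-TKI 2, 3 and 4. The genes of this list did not move together in CML-TKI 1, where Cxcl12 (0.760 CPM) and Col1a2 (5.51 CPM) lay below every CML library (6.37 to 185 and 12.9 to 276 CPM). In CML the list summed to 39.2 to 942 CPM, highest in CML 3, with Col1a1 at 396 and Col1a2 at 276 CPM there. CML 3 was the highest CML library for Hoxa5, Hoxa6, Hoxa7 and Pbx3, and not for Hoxa3, Hoxa9 and Hoxa10. Of the 8 stroma genes tested 4 had a log2 fold change above 0 and 4 below, and 0 were called by edgeR (2 at an unadjusted p of 0.05, 0 by DESeq2 and by limma-voom). CML-TKI 3, the shallowest library, had 31624 CPM of erythroid markers (19625 CPM of Hba-a1) and 144 CPM of lymphoid markers, against at most 240.3 CPM of erythroid and 22.2 CPM of lymphoid markers in CML. Megakaryocyte markers summed to 1471 to 1773 CPM in CML and 48.7 to 608 CPM in CML-TKI. Of 7 tested, 2 were called lower (Itga2b and Gp9), where 3.93% of all genes tested were. Ppbp went the other way, with a log2 fold change of 1.93 (edgeR adjusted p 0.387), and the other 6 were below 0. The part of these cell types in the Hox values was not tested.

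Compared per kilobase of transcript, the members differed by several fold in CML. Hoxa9 had the highest level of the members at 10.99 ± 0.978 CPM per kb (SD, n = 4), followed by Hoxa10 at 7.75 ± 2.24, Pbx3 at 5.94 ± 1.77, Hoxa5 at 5.07 ± 0.491 and Hoxa7 at 4.82 ± 0.753. Then came Hoxb3 at 3.02 ± 0.586, Hoxb4 at 1.997 ± 0.0434, Hoxa3 at 1.55 ± 0.591 and Hoxb5 at 1.43 ± 0.547 CPM per kb. Pbx3, Hoxa5 and Hoxa7 lay within each other's spread, as did Hoxa3 and Hoxb5, whereas the lowest Hoxa9 library (9.96) was above 3 of the 4 Hoxa10 libraries. In CML-TKI the means per kb were 2.34 to 2.35 for Hoxa9 and Pbx3, 2.04 for Hoxb4 and 0.100 to 1.44 for the rest, each with an SD close to or above its mean except for Hoxb3 (1.17 ± 0.868) and Hoxb4 (± 1.81). Most of the order of levels in CML-TKI therefore could not be told apart beyond the spread. Every CML-TKI library of Hoxb3 (0.486 to 2.41) and of Hoxb4 (0.427 to 4.59) lay above every one of Hoxb5 (0 to 0.401). The lowest Hoxb4 value rests on 1 count.

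**Figure D3:**
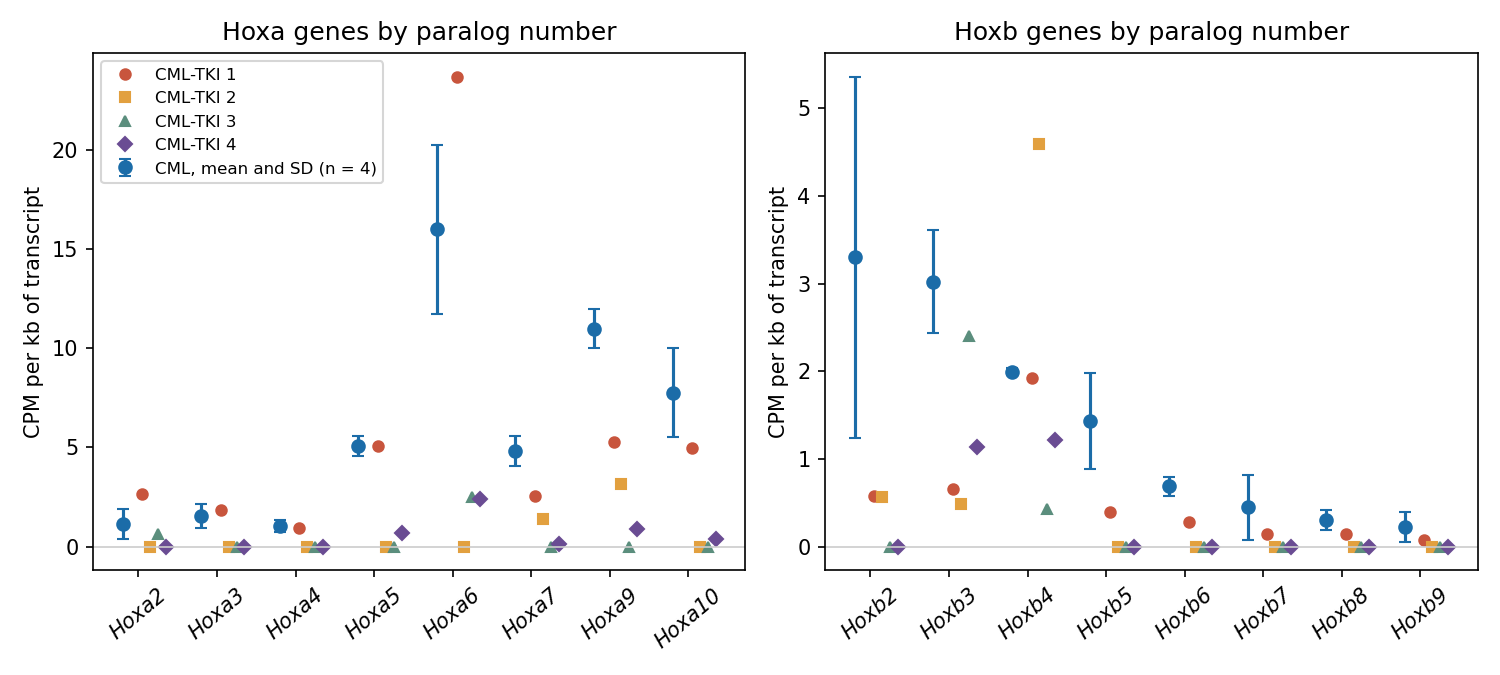
The vertical axes give CPM per kilobase of the longest GENCODE vM21 transcript (of those with a RefSeq match, where there were any) for the Hoxa genes (left) and Hoxb genes (right) given here. Genes are ordered by paralog number, with the CML mean and SD (n = 4) and each CML-TKI library as a separate point. In CML the Hoxa levels are highest at Hoxa6, Hoxa9 and Hoxa10, and the Hoxb levels at Hoxb2 and Hoxb3.

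Of the other Hox genes, Hoxa6 and Hoxb2 were tested and neither was called. Hoxa6, which lies between Hoxa5 and Hoxa7, had 12.9, 12.9, 19.3 and 10.7 CPM in CML and 20.7, 0, 2.19 and 2.08 CPM in CML-TKI, with CML-TKI 1 above every CML library. Its log2 fold change was -1.08 (SE 1.02) with an edgeR adjusted p of 0.552. Hoxb2, next to Hoxb3, had 4.63, 3.28, 3.29 and 10.3 CPM in CML and 0.95, 0.93, 0 and 0 CPM in CML-TKI. The values did not overlap, but the count of 0 in CML-TKI 3 allows up to 3.29 CPM, the level of CML 2 and 3, so a lower level than theirs was not detectable in that library. Its log2 fold change was -3.22 (SE 0.96), with an edgeR adjusted p of 0.0631 and of 0.0153 by DESeq2, and it was called by edgeR without CML-TKI 1 (adjusted p 0.0392), as was Hoxa6 (0.0198). Mira, a noncoding RNA of the Hoxa cluster and the only one of 4 in the table that was tested, had 4.49, 4.63, 7.92 and 5.77 CPM in CML and 2.66, 6.82, 1.096 and 0 CPM in CML-TKI (log2 fold change -1.05, SE 0.95, adjusted p 0.535).

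Among the TALE partners, Meis1 was called lower in CML-TKI by edgeR (1 of the 7 tested genes given here, 0 higher), where 3.93% of all genes tested were called lower. Meis1, the cofactor of HOXA9 in leukemia, had 325, 304, 286 and 274 CPM in CML and 86.0, 19.8, 8.77 and 21.9 CPM in CML-TKI. The groups were far apart, and CML-TKI 1 held 28.96% of the CML mean. The log2 fold change was -3.07 (SE 0.58, 95% interval -4.36 to -1.78, edgeR adjusted p 0.0102). The call was lost with CML 1 to 3 summed (adjusted p 0.112) and in the 6 numbered libraries with and without the replicate block (0.0704 and 0.0755), with log2 fold changes of -2.91 to -3.47 there. Per kilobase in CML, Meis1 stood at 88.8 ± 6.65 CPM (SD, n = 4), against 5.94 for Pbx3 and 10.99 for Hoxa9.

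The other TALE genes given here were not called. Tgif2, a TALE repressor, had 66.3, 51.5, 48.5 and 78.9 CPM in CML and 26.02, 15.2, 0 and 8.85 CPM in CML-TKI, without overlap (log2 fold change -2.20, SE 0.67, adjusted p 0.0649 by edgeR and 0.00377 by DESeq2, and 0.0142 and 0.0245 by edgeR without CML-TKI 1 and without CML-TKI 3). Pbx4 had a log2 fold change of -1.11 (adjusted p 0.421), Pbx2 one of -0.42 (0.383) and Pbxip1, which encodes a PBX-binding protein, one of 0.41 (0.479). Pknox1 (0.08, adjusted p 0.904) and Tgif1 (-0.01, adjusted p 0.987) were near 0, and the sign of each depended on the scaling.

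**Figure D4:**
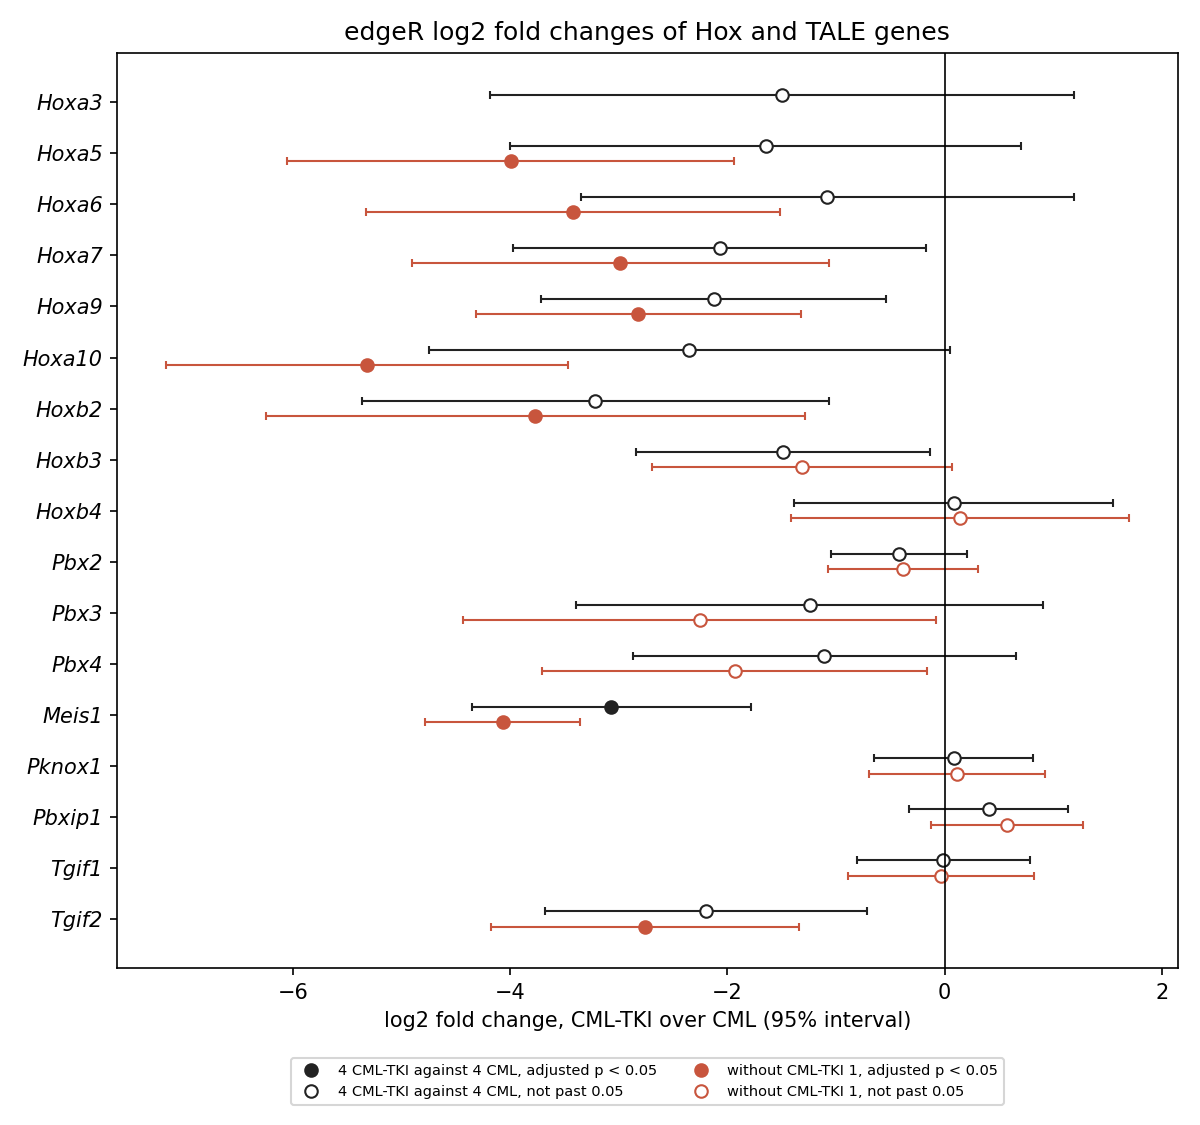
The horizontal axis gives the edgeR log2 fold change of CML-TKI over CML with its 95% interval for the tested Hox and TALE genes given here, in black for all 8 libraries and in red without CML-TKI 1, with filled points where the adjusted p was under 0.05. Of these, Meis1 alone is filled in black, in red Hoxa5, Hoxa6, Hoxa7, Hoxa9, Hoxa10, Hoxb2, Meis1 and Tgif2 are filled, and Hoxa3 in red is not drawn because its remaining CML-TKI libraries were at 0.

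The known activators of the Hox clusters, a list of 24 genes around MLL and DOT1L, gave no call by edgeR with all 8 libraries. Of 21 tested, 0 were called by edgeR (5 at an unadjusted p of 0.05, near the 25.7% of all genes, 2 by DESeq2, 3 by limma-voom), 9 had a log2 fold change above 0 and 12 below, and the median was -0.09. Without CML-TKI 1, edgeR called 2 of the 21, in a fit that called 11% of all genes lower and 9.64% higher. Kmt2a, the MLL gene itself, had 508, 544, 527 and 211 CPM in CML and 359, 169, 409 and 299 CPM in CML-TKI (log2 fold change -0.54, SE 0.35, adjusted p 0.378). Its groups overlapped, and so did those of Dot1l (0.11, SE 0.25, adjusted p 0.828). Men1, the menin gene, had a log2 fold change of -0.60 (SE 0.23, adjusted p 0.131), Cxxc1, a CpG-binding protein gene, one of -0.51 (SE 0.21, adjusted p 0.156), and Ell, an elongation factor gene, one of -1.64 (SE 0.49, adjusted p 0.0631). In these 3 of 21 genes every CML-TKI library was below every CML library, an order that 13.1% of all genes tested showed. Mllt3, a partner of DOT1L that is also in the HSC list, had one of -1.95 (SE 0.61, adjusted p 0.0746). Ccnt1, a cyclin gene of the elongation complex, had one of 0.71 (SE 0.26, adjusted p 0.122), with every CML-TKI library above every CML library (10.3% of all genes tested). These 7 genes were named after their values were seen.

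Of genes known as targets of HOX and MEIS factors, 12 of 13 were tested. By edgeR 4 were called lower and 1 higher, where 3.93% of all genes tested were called lower and 6.29% higher. DESeq2 called 6 of the 12 (8.4% of all genes lower and 9.67% higher) and limma-voom called 9 (11% lower and 10.5% higher). Lmo2, a stem cell transcription cofactor, fell by 2.31 on the log2 scale (SE 0.20, edgeR adjusted p 5.41e-04), from 624 to 756 CPM over the CML libraries to 110 to 158 CPM over the CML-TKI libraries. Erg, an ETS factor of stem cells, fell by 2.13 (SE 0.28, adjusted p 0.00185), Mef2c, a MADS box factor, by 1.62 (SE 0.36, adjusted p 0.0193) and Nfix, a nuclear factor of stem cells, by 1.46 (SE 0.28, adjusted p 0.0103), each without overlap of the groups. Id2, an inhibitor of basic helix-loop-helix factors, rose by 3.98 (SE 1.002, adjusted p 0.0336), from 0.953, 1.93, 1.55 and 2.20 CPM in CML to 85.3, 8.37, 5.48 and 4.94 CPM in CML-TKI. The list's median was -0.83. In CML-TKI 1, Lmo2 stood at 139 CPM, within the range of the other CML-TKI libraries. Leaving out CML 1, CML 2 or CML 3 ended the calls of Id2 (adjusted p 0.0943 to 0.108) and of Mef2c (0.0584 to 0.0651), as did leaving out CML 5 for Id2 (0.0884) and CML-TKI 2 for Mef2c (0.0522), and without CML-TKI 1 the change of Id2 was 1.91. With CML 1 to 3 summed, the calls of Erg (0.0612), Mef2c (0.233), Nfix (0.120) and Id2 (0.304) were lost and Lmo2 alone was called, and Nfix and Id2 were not called in the 6 numbered libraries with the replicate block (0.110 and 0.210) or without it (0.0682 and 0.080).

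The genes whose pattern over the 8 libraries was most like that of the tested members, out of 9313 candidates (mean log2 CPM no lower than 3), were Cryzl2 (r = 0.989), Hs1bp3 (0.987), Fbxo21 (0.986), Pdk3 (0.986) and Adam22 (0.983), where r is Pearson's correlation with the mean of the members' scaled log2 CPM. For Hoxa9 alone they were Sema7a (0.992), Sap130 (0.990), Elk3 (0.989), Ap3s2 (0.989) and Vill (0.989). Cryzl2 stood at 22.6, 7.44, 3.29 and 5.72 CPM in CML-TKI 1 to 4 and at 34.4 to 51.7 CPM in CML. The points share library depth and the group difference, and the genes were picked as the closest of many.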

How the data were processed

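Bulk RNA-seq of 8 libraries was analysed, 4 CML and 4 CML-TKI. The authors made Nextera XT libraries from RNA isolated with a Qiagen RNeasy kit, aligned reads to mm10 with STAR 2.6.1d and quantified RefSeq transcripts in Partek Flow (8.0), and the table they deposited holds estimated counts per gene without normalization. Values that were not whole made up 8.32% to 22.1% of each library and were rounded. 20 symbols had been turned into dates and were not matched. The CML column numbered 5 carries no label number and entered the CML group unpaired.

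edgeR 4.0.16 in R 4.3.3 was run with TMM normalization, filterByExpr (minimum count 10, total 15) and the robust quasi-likelihood test over 11937 genes, with Benjamini-Hochberg adjustment at 0.05. The SE was obtained as the log2 fold change over the root of the F statistic. Hoxb5 was compared by an exact permutation test. DESeq2 1.42.0, limma 3.58.1 (voom), other scalings and filters, each library left out, the replicate block and CML 1 to 3 summed were run as alternatives. The 3 tools were tested on simulated counts, in which DESeq2 made a larger share of false calls than edgeR and limma-voom.

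The members, the lists and tests were chosen with earlier results of these data known. Named by rule were all members, the tested Hox and TALE genes, activators and targets past the threshold (no activator passed), and the 5 genes most like the members. Outside the rule, 7 activators were named after their values were seen. Sequences and positions are from RefSeq (GRCm38.p6), overlaps and transcript lengths from GENCODE vM21. Some listed genes are not reported here. Lists came from general knowledge, and the mesenchymal stroma list was added after the values were seen. In the lymphoid list 1 of 8 genes found in the table was tested (Cd79b) and 0 were called, and of the erythroid list 6 were tested and 0 called (3 at an unadjusted p of 0.05, 1 by limma-voom).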

Additional observations from a re-analysis of the deposited data

Results flagged for a closer look

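In groups of 4 libraries, a library was singled out where its gap to the nearest other, divided by the range of the group, was above Dixon's critical value at 95%. Of 48 measures examined, 7 met this, and chance gives about 1 in 20 groups. In CML-TKI, library 1, the highest, was singled out for Hoxa3 and Hoxb5 (ratio 1 for each), Hoxa10 (0.918), Hoxa6 (0.894), Hoxa5 (0.863) and Meis1 (0.831), and for the target gene Id2 (0.957). With the other 3 libraries at 0 any count gives a ratio of 1, so the values of Hoxa3 and Hoxb5 say nothing by themselves, and Hoxb5 in CML-TKI 1 (0.760 CPM) lay under the limit that a count of 0 allows in CML-TKI 2, 3 and 4 (0.930, 3.29 and 0.781 CPM). The genes share libraries, so these are not independent of each other.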

How the results depend on the processing

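Over all genes edgeR called 1220. The count was 2157 with DESeq2, 2563 with limma-voom, 122 with CML 1 to 3 summed and 505 to 2504 when each library was left out. RLE scaling, total counts, totals without Rn45s, no filter, a filter of 20 counts in 4 libraries and thinning to the smallest library gave 1037 to 1215. Of the members, 1 was called with DESeq2, 6 with limma-voom and 0 to 6 with a library left out (6 without CML-TKI 1, Hoxb3 alone without CML-TKI 3), and 0 under the other settings. Their median log2 fold change was -3.30 with limma-voom and -2.99 to -1.35 with a library left out. After thinning, 3 members could be tested (median -2.27). The 5 Hoxa members, Hoxb3 and Pbx3 stayed below 0 in every alternative that tested them. Totals without Rn45s moved the median of all genes to -0.14, limma-voom to -0.11 and the block to -0.13.

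Hoxb4 turned to -0.24 with limma-voom, -0.058 without Rn45s, -0.086 with the replicate block, and ran from -0.63 to 0.37 with a library left out. Pknox1 turned to -0.080 with limma-voom and -0.056 without Rn45s (-0.31 to 0.26 with a library left out). Tgif1 turned to 0.20 with limma-voom, 0.079 with total counts, 0.13 after thinning and 0.0008 in the 6 numbered libraries without the block (-0.11 to 0.19 with a library left out). The cause was not tested.

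Replicate numbers 1 to 3 are shared by the groups. Deviations of same-numbered libraries had r of -0.04, 0.10 and 0.09, and those of differently numbered libraries -0.14 to 0.10. Because CML 1 to 3 stood so close to each other, these values cannot decide whether the numbers pair libraries. In those 6 libraries 193 genes were called with the replicate block and 589 without it, and 0 members with either. Meis1 was called in 16 of 19 alternatives (adjusted p at most 0.112), the exceptions being CML 1 to 3 summed and the fits of 6 libraries, and Hoxa9 in 3 of 19 (adjusted p 0.0117 to 0.378). Depth limits the members most in CML-TKI 3, where a count of 0 allows 3.29 CPM.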

Other observations

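Some Hox and TALE genes that were near 0 in CML had counts in CML-TKI 1. Hoxd8 was at 0, 0, 0 and 0.687 CPM in CML and at 8.17, 0, 0 and 0 CPM in CML-TKI, and Hoxd4 was at 0, 0, 0 and 0.137 CPM in CML and at 3.42, 0, 0 and 0 CPM in CML-TKI. Meis2, a paralog of Meis1, ranged from 0 to 1.16 CPM in CML and was at 17.5, 0, 13.2 and 0.780 CPM in CML-TKI, and Pknox2 was at 0 in the 4 CML libraries and at 9.69, 0, 9.86 and 0 CPM in CML-TKI. These genes did not pass the filter on low counts and were not tested. Their choice followed a look at the values.

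The posterior and central Hoxb genes Hoxb6, Hoxb7, Hoxb8 and Hoxb9 were low in CML (0 to 1.16 CPM) and had no count in CML-TKI 2, 3 and 4, with 0.190 to 0.380 CPM in CML-TKI 1. All of these levels in CML-TKI were under the limit of 3 counts for CML-TKI 1 (0.570 CPM). Of the 9 Hoxc genes listed 2 were in the table, Hoxc5 and Hoxc6, at no more than 2.09 CPM in any library.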
